A study of Mus musculus with 4 samples.

Results

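The 10 genes described here encode integrin chains: the alpha chains Itga1, Itga2, Itga4, Itgal, Itgae and Itgav and the beta chains Itgb1, Itgb2, Itgb3 and Itgb7. They were taken by symbol, as every probe set that the platform annotation gives to 1 of these genes and no other, which was 27 of the 45101 probe sets on the array. All 10 were among the 18193 genes measured. The source of the RNA was sorted splenic CD8 T cells of untreated wild-type B6 mice of unstated age. The Ly49+ group (2 arrays) was sorted as CD44+CD122+Ly49+ cells, named CD8+ Treg in the labels, and the Ly49- group (2 arrays) as CD44+CD122+Ly49- cells, named conventional memory type. The comparison asks how expression differs between these populations. The labels do not say whether the replicates came from separate mice, so each p-value reflects the spread between these arrays alone, and that spread may be technical.

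An integrin is a cell surface receptor made of 1 alpha and 1 beta chain, and each chain reaches the surface only in a pair. In T cells, LFA-1 (Itgal with Itgb2) binds ICAM-1 and ICAM-2 and holds the cell to its target, and VLA-4 (Itga4 with Itgb1) binds VCAM-1 and fibronectin. VLA-1 (Itga1 with Itgb1) and VLA-2 (Itga2 with Itgb1) bind collagens, LPAM-1 (Itga4 with Itgb7) binds MAdCAM-1 of gut vessels, CD103 (Itgae) pairs with Itgb7 to bind E-cadherin, and the vitronectin receptor joins Itgav with Itgb3. Integrins bind strongly only after signals from inside the cell, in which the GTPase Rap1, talin and kindlin act on the beta chain's tail.

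The collagen-binding alpha chains Itga1 and Itga2 were higher in Ly49+ cells, Itgb3 and Itgb7 were lower, and the other 6 genes did not pass the test. For each gene the brightest probe set was tested with limma on log2(intensity + 16), and a gene passed at a Benjamini-Hochberg adjusted p under 0.05 over all 18193 genes. All fold changes refer to that scale, which makes those of dim genes too small. Of the 10 genes, 4 passed, while 4.0% of all genes did. By direction, 2 were higher, where 1.93% of all genes were, and 2 were lower, where 2.07% of all genes were. The differences were below 2-fold in all 10 genes. The median log2 change of the 10 was -0.00, beside -0.04 for all genes, and the median size of the change was 0.08 in both. The groups did not overlap in 6 of the 10 genes, beside 48.4% of all genes: 3 lay higher in Ly49+ cells, beside 13.2% of all genes, and 3 lower, beside 35.2%.

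**Figure D1:**
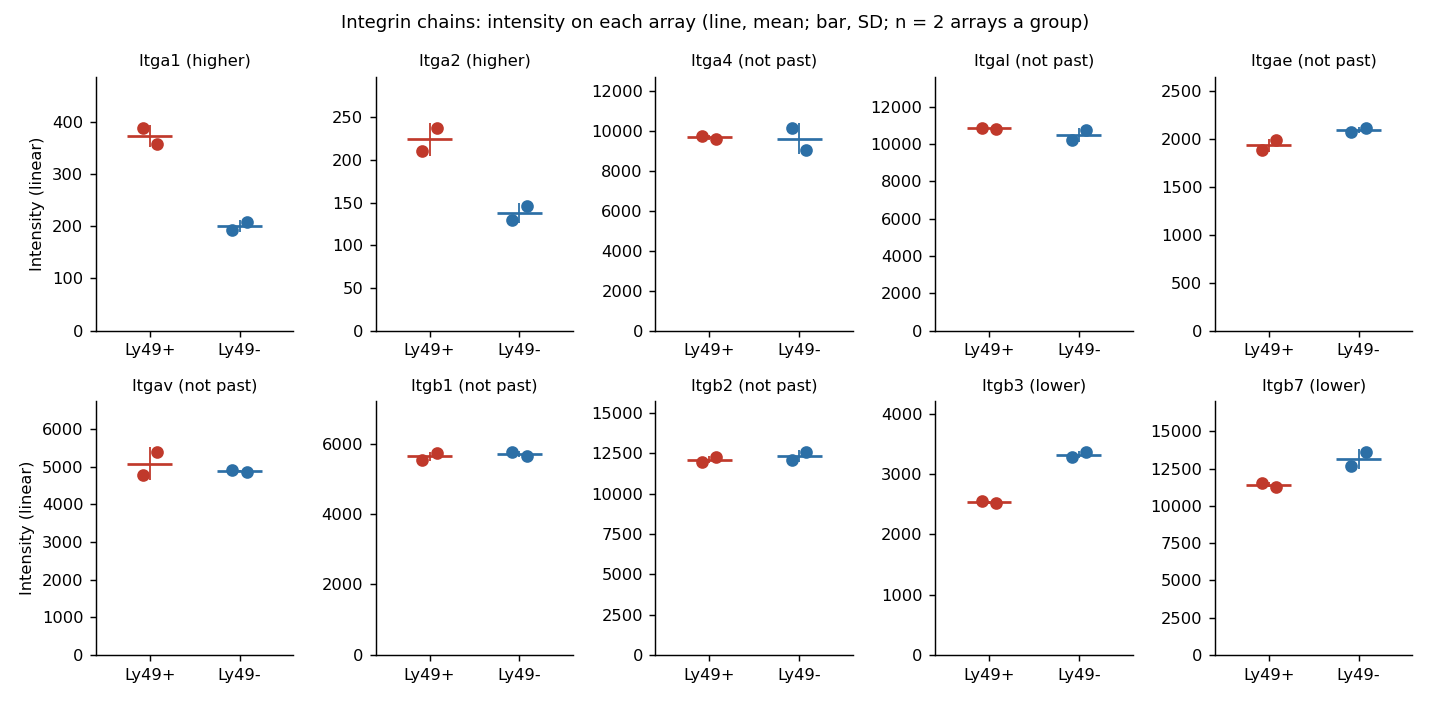
Intensity (linear scale, from 0) of the brightest probe set of each integrin gene, with 1 panel a gene, Ly49+ arrays left and Ly49- arrays right. Points are arrays, horizontal lines the means and vertical bars the SD of 2 arrays, and the word after each symbol is the result of the limma test. Itga1 lay at 388 and 358 on the Ly49+ arrays, above the 192 and 208 of the Ly49- arrays, while Itgb3 lay lower on both Ly49+ arrays.

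Itga1, the alpha chain of VLA-1, read 388 and 358 on the Ly49+ arrays and 192 and 208 on the Ly49- arrays. Both Ly49+ readings lay above both Ly49- readings. The means were 373 ± 21.3 in Ly49+ and 200.4 ± 11.3 in Ly49- cells (SD, n = 2 arrays each), a 1.80-fold difference (log2 fold change 0.85 ± 0.11 SE, limma adjusted p = 0.00419). A further Itga1 probe set was dimmer, at 87.2 and 69.5 on the Ly49+ arrays and 49.4 and 49.9 on the Ly49- arrays. It did not pass in the fit over single probe sets (limma adjusted p = 0.120). Its Ly49- readings lay below 70.3, the highest intensity of any bacterial control probe set, so its log2 change is plotted below but not read as a size. Without Ly49- replicate 1 the limma adjusted p of Itga1 was 0.0702, and without Ly49- replicate 2 it was 0.0595.

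Itga2, the alpha chain of VLA-2, read 210.3 and 237 on the Ly49+ arrays and 129.9 and 146 on the Ly49- arrays, so the groups did not overlap. It was 1.56-fold higher in Ly49+ cells, with means of 223.9 ± 19.2 in Ly49+ and 138 ± 11.4 in Ly49- cells (log2 fold change 0.64 ± 0.12 SE, limma adjusted p = 0.0214). It has 1 probe set, which missed the threshold in the test of all 45037 probe sets (limma adjusted p = 0.0749). The call was lost without any 1 array: the limma adjusted p was 0.0617 with Ly49+ replicate 1 removed, 0.143 with Ly49+ replicate 2, 0.140 with Ly49- replicate 1 and 0.119 with Ly49- replicate 2 removed.

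Itga2 and Itga1 are next to each other on mouse chromosome 13. The 250 bases upstream of each start site are shown because these neighbouring genes moved the same way. The sequences are RefSeq's (GRCm38.p6), 5′ to 3′, and both lie on the minus strand, Itga1 at chr13:115101965-115102214 and Itga2 at chr13:114932101-114932350. Capitals mark matches on either strand to 6 motifs searched: TGTGGT (RUNX core), GGAAGT (ETS core), AGGTGT (T-box core), CAGCTG (E-box), GGGCGG (GC box) and TGAGTCA (AP-1).
Itga1: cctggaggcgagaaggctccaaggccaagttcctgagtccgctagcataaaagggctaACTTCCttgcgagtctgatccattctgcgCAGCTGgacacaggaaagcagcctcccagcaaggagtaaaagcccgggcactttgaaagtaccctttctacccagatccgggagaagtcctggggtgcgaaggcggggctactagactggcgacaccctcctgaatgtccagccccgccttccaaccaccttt
Itga2: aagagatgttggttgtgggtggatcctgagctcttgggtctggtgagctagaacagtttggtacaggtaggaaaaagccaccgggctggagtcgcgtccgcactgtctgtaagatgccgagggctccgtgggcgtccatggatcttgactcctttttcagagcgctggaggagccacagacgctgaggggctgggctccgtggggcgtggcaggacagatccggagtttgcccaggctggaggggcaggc
The Itga1 window held 1 ETS core, read as ACTTCC on the printed strand, and 1 E-box, which did not overlap. The Itga2 window held none of the 6 motifs. Among 32851 windows of the same length in that table, 19.7% held the ETS core, 13.0% the E-box, 14.0% the RUNX core, 11.8% the T-box core, 32.7% the GC box and 4.46% the AP-1 motif. A match is a description of letters and not a site.

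Markers of myeloid cells were also higher on the Ly49+ arrays, and their part in the rises of Itga1 and Itga2 was not tested. Of 18 measured myeloid markers, 13 were higher and 2 lower in Ly49+ cells, beside 1.93% and 2.07% of all genes. The median log2 change of these markers was 0.63. Their summed intensity was 28310 and 31557 on the Ly49+ arrays and 19386 and 19321 on the Ly49- arrays. Lyz2, which encodes lysozyme, was higher (log2 fold change 1.13, limma adjusted p = 0.000275), as was the macrophage scavenger receptor gene Cd163 (1.08, adjusted p = 0.000279), while the neutrophil proteins S100a8 (-0.49) and S100a9 (-0.53) were lower. Itgam, the alpha chain of myeloid cells that pairs with Itgb2, read 34.0 and 31.9 on the Ly49+ arrays and 37.4 and 38.8 on the Ly49- arrays, all below the highest bacterial control. In bulk RNA, a different number of cells of a type and a different amount of RNA per cell cannot be told apart. Leaving out 1 Ly49+ array left 11 (replicate 1) or 8 (replicate 2) of the myeloid markers past the threshold, and leaving out either Ly49- array left 5. Neither S100a8 nor S100a9 passed without any 1 array, with limma adjusted p between 0.0569 and 0.216.

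B-cell markers summed to 52883 and 56124 on the Ly49+ arrays and 40683 and 41014 on the Ly49- arrays. Of these 14, 5 were higher and 1 lower, beside 1.93% and 2.07% of all genes. The higher ones were Cd22 and the MHC class II presentation genes H2-Aa, H2-Ab1, H2-Eb1 and Cd74. Cd74 and Ighm were the largest parts of the B-cell sum. Cd74 read 15389 and 16459 on the Ly49+ arrays and 10058 and 10162 on the Ly49- arrays. Ighm read 13508 and 14523 on the Ly49+ arrays and 14415 and 15442 on the Ly49- arrays. Cd79b was lower (log2 fold change -0.28, limma adjusted p = 0.0267). Cd79a (0.28), Ms4a1 (0.44), Pax5 (0.02), Ebf1 (-0.05) and Ighm (-0.09) did not pass. NK-cell markers summed to 35980 and 36962 on the Ly49+ arrays and 33174 and 34999 on the Ly49- arrays. Of these 12, 4 were higher and 0 lower, beside 1.93% and 2.07% of all genes. The higher ones were Fcgr3, Tyrobp, Fcer1g and Cd244a. Gzma went the other way, at 2181 and 3116 on the Ly49+ arrays and 3916 and 6509 on the Ly49- arrays. It did not pass (log2 fold change -0.95, limma adjusted p = 0.0508). Ncr1, a defining NK-cell receptor, averaged less than the highest bacterial control in either group. Of 11 measured dendritic-cell markers, 2 were higher and 0 lower, beside 1.93% and 2.07% of all genes. The higher ones were Xcr1 (log2 fold change 0.95, limma adjusted p = 0.00326) and Irf8 (0.55, adjusted p = 0.00619). The 11 markers summed to 17374 and 15233 on the Ly49+ arrays and 18074 and 16141 on the Ly49- arrays. Most of that sum was Ccr7, at 11689 and 9182 on the Ly49+ arrays and 13332 and 11330 on the Ly49- arrays. The median log2 change of the 11 was 0.24. In limma, 9 of the 11 had an unadjusted p under 0.05, 7 higher and 2 lower, beside 18.1% of all genes. Erythroid markers summed to 11155 and 11053 on the Ly49+ arrays and 10049 and 10196 on the Ly49- arrays. Most of that sum was Hba-a2, at 10445 and 10444 on the Ly49+ arrays and 9476 and 9596 on the Ly49- arrays. Of the 6 erythroid markers, 0 passed limma's threshold (2 at an unadjusted p under 0.05, a level that 18.1% of all genes reached). In limma, 0 of the 12 T-cell markers passed (2 at an unadjusted p under 0.05), and their median log2 change was -0.03. The sort itself was visible in the Ly49 receptor gene Klra7, at 8932 on average in Ly49+ and 905 in Ly49- cells. Array medians lay between 188.5 and 190.4, and the Actb probe sets, as a sign of RNA quality, gave 3′ to 5′ ratios of 1.265 and 1.293 (Ly49+) and 1.368 and 1.335 (Ly49-). The 5′ control probe set of 18S ribosomal RNA was higher with the group, at 878.5 and 668.8 on the Ly49+ arrays and 470.9 and 338.7 on the Ly49- arrays, and its part in the results was not tested. The middle 18S probe set, at 16035 and 15592 on the Ly49+ arrays and 17085 and 13373 on the Ly49- arrays, and the 3′ one, at 623 and 526 on the Ly49+ arrays and 557 and 446 on the Ly49- arrays, overlapped between the groups.

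The shared beta chain of VLA-1, VLA-2 and VLA-4, Itgb1, did not pass the test. Its brightest probe set read 5544 and 5731 on the Ly49+ arrays and 5754 and 5636 on the Ly49- arrays, and the groups overlapped (log2 fold change -0.01, 95% interval -0.12 to 0.09, limma adjusted p = 0.908). Of the other 5 Itgb1 probe sets, 1 read between 12.2 and 13.3 on every array, below the highest bacterial control, and its change is not read as a size. The log2 changes of the remaining 4 were positive, from 0.03 to 0.28. One that is nearly as bright read 3725 and 3886 on the Ly49+ arrays and 3467 and 3468 on the Ly49- arrays, which did not overlap (log2 fold change 0.13, limma adjusted p = 0.349 in the fit over single probe sets). None of the 6 probe sets of Itgb1 passed. Per array, the Itga1 minus Itgb1 log2 difference, centred on its mean, was 0.51 and 0.35 on the Ly49+ arrays and -0.50 and -0.36 on the Ly49- arrays. With 2 arrays against 2, the exact two-sided permutation test gave p = 0.333, the smallest it can give.

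Itga4, the alpha chain of VLA-4 and LPAM-1, did not differ past the threshold in any of its 5 probe sets. The brightest read 9752 and 9571 on the Ly49+ arrays and 10144 and 9053 on the Ly49- arrays, where the Ly49- readings enclosed both Ly49+ readings (log2 fold change 0.01, 95% interval -0.11 to 0.14, limma adjusted p = 0.945). Another Itga4 probe set was higher on both Ly49+ arrays, at 2369.6 and 2323, than on the Ly49- arrays, at 2135 and 1968. A dimmer one was lower on both, at 1032 and 1011 on the Ly49+ arrays against 1223 and 1041 on the Ly49- arrays. The 5 probe sets ranged from -0.14 to 0.21 on the log2 scale.

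Neither chain of LFA-1 passed the test. Itgal read 10875 and 10815 on the Ly49+ arrays and 10226 and 10758 on the Ly49- arrays, without overlap (log2 fold change 0.05, 95% interval -0.04 to 0.14, limma adjusted p = 0.590). Its second probe set was lower on both Ly49+ arrays, at 1429 and 1596 on them against 1631 and 1600 on the Ly49- arrays. Itgb2, the beta chain of all leukocyte beta 2 integrins, read 11934 and 12258 on the Ly49+ arrays and 12057 and 12569 on the Ly49- arrays, and the groups overlapped (log2 fold change -0.03, 95% interval -0.11 to 0.06, limma adjusted p = 0.798). As folds of Ly49+ over Ly49-, the 95% intervals ran from 0.971 to 1.10 for Itgal and from 0.924 to 1.04 for Itgb2.

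Itgb3, the beta chain of the vitronectin receptor and of the platelet fibrinogen receptor, was lower in Ly49+ cells. It read 2551 and 2513 on the Ly49+ arrays and 3283 and 3363 on the Ly49- arrays, without overlap. The means were 2532 ± 26.9 in Ly49+ and 3323 ± 56.7 in Ly49- cells, 1.31-fold lower in Ly49+ (log2 fold change -0.39 ± 0.05 SE, limma adjusted p = 0.00466). Its dimmer probe set, at 157 and 167 on the Ly49+ arrays and 177 and 199 on the Ly49- arrays, was also lower on both Ly49+ arrays but did not pass (log2 fold change -0.19, limma adjusted p = 0.537 in the fit over single probe sets). With the mean of both probe sets the limma adjusted p was 0.0671. It was 0.0535 when Ly49+ replicate 2 was removed, 0.0569 when Ly49- replicate 1 and 0.0719 when Ly49- replicate 2 was removed.

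Platelet markers bear on Itgb3 and on Itga2, which platelets carry. Of 13 measured platelet and megakaryocyte markers, 1 was higher and 1 lower, beside 1.93% and 2.07% of all genes. The median log2 change of these markers was -0.04, as for all genes. Vwf, the von Willebrand factor gene, was the higher one, at 95.8 and 83.3 on the Ly49+ arrays and 61.9 and 50.5 on the Ly49- arrays, where it lay below the highest bacterial control (limma adjusted p = 0.0399). Gata1, a transcription factor gene of megakaryocytes and red cells, was lower, at 134 and 122 on the Ly49+ arrays and 179 and 197 on the Ly49- arrays (log2 fold change -0.50, adjusted p = 0.0497). Clec1b had the largest change of the list but did not pass (log2 fold change 0.61, limma adjusted p = 0.0993). It read 443 and 523 on the Ly49+ arrays and 252 and 379 on the Ly49- arrays. The summed intensity of the 13 markers was 1663 and 1687 on the Ly49+ arrays and 1532 and 1622 on the Ly49- arrays. Itga2b, the alpha chain that joins Itgb3 on platelets, read 202 and 209 on the Ly49+ arrays and 215 and 211 on the Ly49- arrays (log2 fold change -0.05, limma adjusted p = 0.875). With any 1 array left out, 0 of the platelet markers passed in limma.

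Itgav, the alpha chain that takes Itgb1 or Itgb3 as its partner, did not pass. It read 4773 and 5390.5 on the Ly49+ arrays and 4918 and 4862 on the Ly49- arrays, and the groups overlapped (log2 fold change 0.05, 95% interval -0.09 to 0.19, limma adjusted p = 0.716). Its other 4 probe sets were dim, between 133 and 484 on every array, and ranged from -0.02 to 0.31 on the log2 scale. Per array, the Itgav minus Itgb3 log2 difference, centred on its mean, was 0.12 and 0.32 on the Ly49+ arrays and -0.20 and -0.25 on the Ly49- arrays (exact two-sided permutation p = 0.333, the smallest it can give).

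Itgb7, the beta chain shared by LPAM-1 and CD103, was slightly lower in Ly49+ cells. It read 11538 and 11295 on the Ly49+ arrays and 12651 and 13611 on the Ly49- arrays, without overlap. The means were 11416 ± 172 in Ly49+ and 13131 ± 679 in Ly49- cells, 1.15-fold lower in Ly49+ (log2 fold change -0.20 ± 0.04 SE, limma adjusted p = 0.0405). This call was the least firm of the 4: its only probe set gave a limma adjusted p of 0.114 in the test of all probe sets. The gene-level limma adjusted p was 0.0739 after quantile normalization, 0.0504 with a pseudocount of 64 and 0.234 without a trend of the spread. Leaving out 1 array gave 0.171 (Ly49+ replicate 1), 0.253 (Ly49+ replicate 2), 0.0632 (Ly49- replicate 1) or 0.211 (Ly49- replicate 2). It was 0.0645 when each gene's probe sets were averaged.

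Itgae, the CD103 chain that pairs with Itgb7 alone, was lower on both Ly49+ arrays and did not pass. It read 1887 and 1983 on the Ly49+ arrays and 2068 and 2115 on the Ly49- arrays (log2 fold change -0.11, 95% interval -0.25 to 0.02, limma adjusted p = 0.377). The second probe set gave -0.11 as well, at 848 and 1001 on the Ly49+ arrays against 990 and 1002 on the Ly49- arrays, where the groups overlapped. The brighter one has a name ending in _s_at, a kind that may also detect other transcripts.

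**Figure D2:**
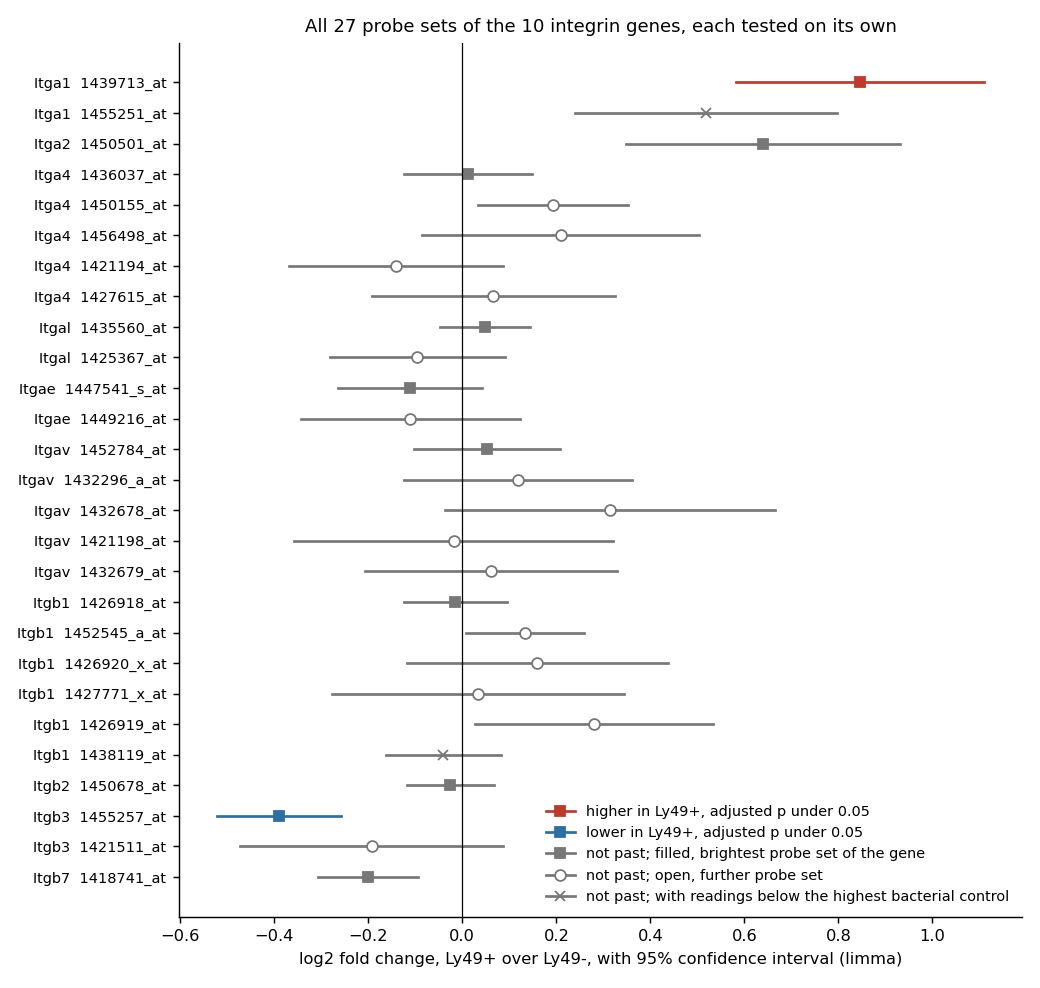
Log2 fold change of Ly49+ over Ly49- cells for all 27 integrin probe sets, from the limma fit over single probe sets, with 95% confidence intervals and the probe sets grouped by gene. Squares mark the brightest probe set of a gene, open circles the others, and crosses the 2 with readings below the highest bacterial control, whose changes are not read as sizes. The 2 coloured probe sets, for Itga1 (0.85) and Itgb3 (-0.39), passed at an adjusted p under 0.05, and the intervals of most others included 0.

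Probe set by probe set, 2 of 27 passed, 1 higher and 1 lower, beside 1.19% of the 45037 probe sets tested (0.766% higher and 0.429% lower). They were the brightest ones of Itga1 (limma adjusted p = 0.0227) and Itgb3 (0.0284). Both were lost in each fit on 3 arrays, with adjusted p of 0.116 to 0.146 for Itga1 and 0.127 to 0.195 for Itgb3, and that of Itgb3 was 0.0993 without a trend of the spread. The fit with a replicate block called 5 of the 27. That block also raised the calls over all genes, to 1527 from 728 in the gene fit. The share of all probe sets called with the block is not given here, so the 5 cannot be set against it. Groups did not overlap in 17 of 27 probe sets, the 2 dim ones included, beside 44.9% of all probe sets. In 10 the Ly49+ readings were higher, beside 15.7% of all, and in 7 lower, beside 29.1%. Within a gene, probe sets of Itga4, Itgal, Itgav and Itgb1 differed in sign.

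Read as heterodimers, no pair had both chains past the threshold. Of the 8 pairs, 2 had a higher alpha chain with Itgb1 not past the threshold (VLA-1 and VLA-2), and 3 had a lower beta chain with an alpha chain not past the threshold (the vitronectin receptor, LPAM-1 and CD103). In the other 3 pairs, LFA-1, VLA-4 and Itgav with Itgb1, neither chain passed. The change of the alpha chain minus that of the beta chain was 0.86 for VLA-1, 0.65 for VLA-2 and 0.44 for the vitronectin receptor on the log2 scale. It was 0.21 for LPAM-1, 0.09 for CD103, 0.07 for LFA-1, 0.07 for Itgav with Itgb1 and 0.03 for VLA-4. None of the 8 could pass an exact permutation test at this number of arrays. These are differences between changes, since levels of different probe sets cannot be set against each other.

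**Figure D3:**
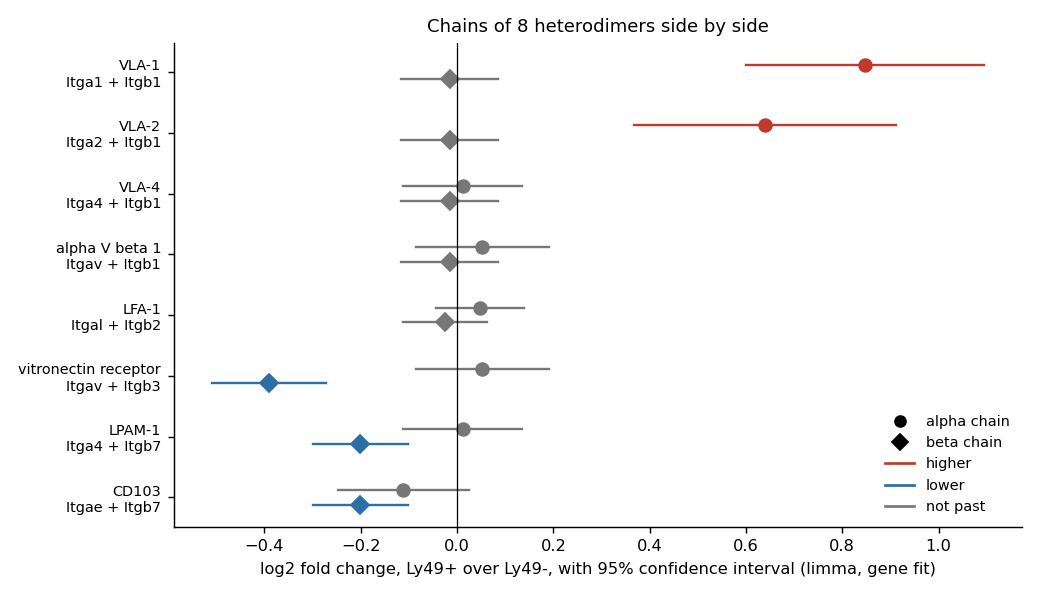
Log2 fold change of Ly49+ over Ly49- cells for the alpha chain (circle) and beta chain (diamond) of 8 integrin heterodimers, from the gene-level limma fit with 95% confidence intervals. Chains that passed are coloured. Itga1 (0.85) and Itga2 (0.64) stand apart from their partner Itgb1 (-0.01), and Itgb3 (-0.39) from its partner Itgav (0.05).

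Of the integrin chains outside the 10, 14 of 16 listed were measured and 0 passed in limma (3 at an unadjusted p under 0.05, beside 18.1% of all genes), and their median log2 change was -0.04, as for all genes. The laminin receptor chain Itga6 read 6806 and 7047 on the Ly49+ arrays and 7032 and 7229.6 on the Ly49- arrays (log2 fold change -0.04, limma adjusted p = 0.673). Itgax, which pairs with Itgb2 on dendritic cells and some activated T cells, read 1345 and 1498 on the Ly49+ arrays and 1600.2 and 1591 on the Ly49- arrays (-0.17, adjusted p = 0.274). Itga5, the fibronectin receptor chain, differed by -0.12 and did not pass (adjusted p = 0.589). In 5 of the 14 genes the means of both groups lay under the highest bacterial control.

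Among genes that switch integrins on or tie them to the cytoskeleton, Rhoh and Rapgef1 were lower, 2 of the 46 measured, beside 4.0% of all genes that passed. In limma 0 were higher and 44 did not pass, and 11 had an unadjusted p under 0.05, 3 higher and 8 lower, beside 18.1% of all genes, with a median log2 change of -0.04. Rhoh, a GTPase of blood cells that acts in T-cell receptor signalling, read 8435 and 8319.5 on the Ly49+ arrays and 9847 and 9828 on the Ly49- arrays (log2 fold change -0.23, limma adjusted p = 0.0114). Rapgef1, an exchange factor for Rap1, read 6255 and 6564 on the Ly49+ arrays and 7543 and 7232 on the Ly49- arrays (-0.20, adjusted p = 0.0451). The groups did not overlap in either gene. The talin gene Tln1 differed by -0.02 (95% interval -0.12 to 0.09), the kindlin-3 gene Fermt3 by -0.03 (-0.12 to 0.07) and Rap1b by 0.05 (-0.02 to 0.13). Neither Rhoh nor Rapgef1 passed without any 1 array (Rhoh 0.0835 to 0.126 and Rapgef1 0.137 to 0.313), without a trend of the spread (0.140 and 0.213) or with the mean of all probe sets (0.933 and 0.0768), and Rapgef1 also not after quantile normalization (0.0622). With the mean of all probe sets the log2 change of Rhoh was -0.02.

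Among surface proteins that associate with integrins, Cd81 was higher and the other 14 of 15 measured did not pass, while 1.93% of all genes were higher. In limma 4 of the 15 had an unadjusted p under 0.05, 3 higher and 1 lower, beside 18.1% of all genes. Cd81, a tetraspanin that sits beside beta 1 integrins in the membrane, read 4229 and 4928 on the Ly49+ arrays and 2888 and 2689 on the Ly49- arrays, without overlap (log2 fold change 0.71, limma adjusted p = 0.00192, and 0.0655 without Ly49- replicate 2). The adhesion receptor Cd44, on which both populations were sorted, differed by 0.16 (adjusted p = 0.206) and Cd2 by -0.00 (0.974). The tetraspanin Cd9 read 819 and 674 on the Ly49+ arrays and 605 and 504 on the Ly49- arrays and did not pass (log2 fold change 0.42, adjusted p = 0.110).

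Of 25 measured genes for integrin ligands, Vcam1 was higher, Cdh1 was lower and 23 did not pass. Of all genes, 1.93% were higher and 2.07% lower. In limma 2 of the 25 had an unadjusted p under 0.05, beside 18.1% of all genes. Vcam1, the ligand of VLA-4, read 4946 and 5702 on the Ly49+ arrays and 3174 and 3213 on the Ly49- arrays (log2 fold change 0.73, limma adjusted p = 0.000904). It is also 1 of the 18 myeloid markers above, whose summed level was higher on both Ly49+ arrays. Cdh1 encodes E-cadherin, the ligand of CD103, and read 264 and 212 on the Ly49+ arrays and 462 and 527 on the Ly49- arrays (log2 fold change -1.01, adjusted p = 0.00412). Without Ly49- replicate 1 its adjusted p was 0.0619, and without Ly49- replicate 2 it was 0.0941. The ligands of LFA-1 did not pass: Icam1 differed by -0.01 (95% interval -0.12 to 0.09) and Icam2 by -0.02 (-0.12 to 0.08). Madcam1, the ligand of LPAM-1, was below the highest bacterial control on every array, and in 10 of the 25 genes the means of both groups lay under that control.

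**Figure D4:**
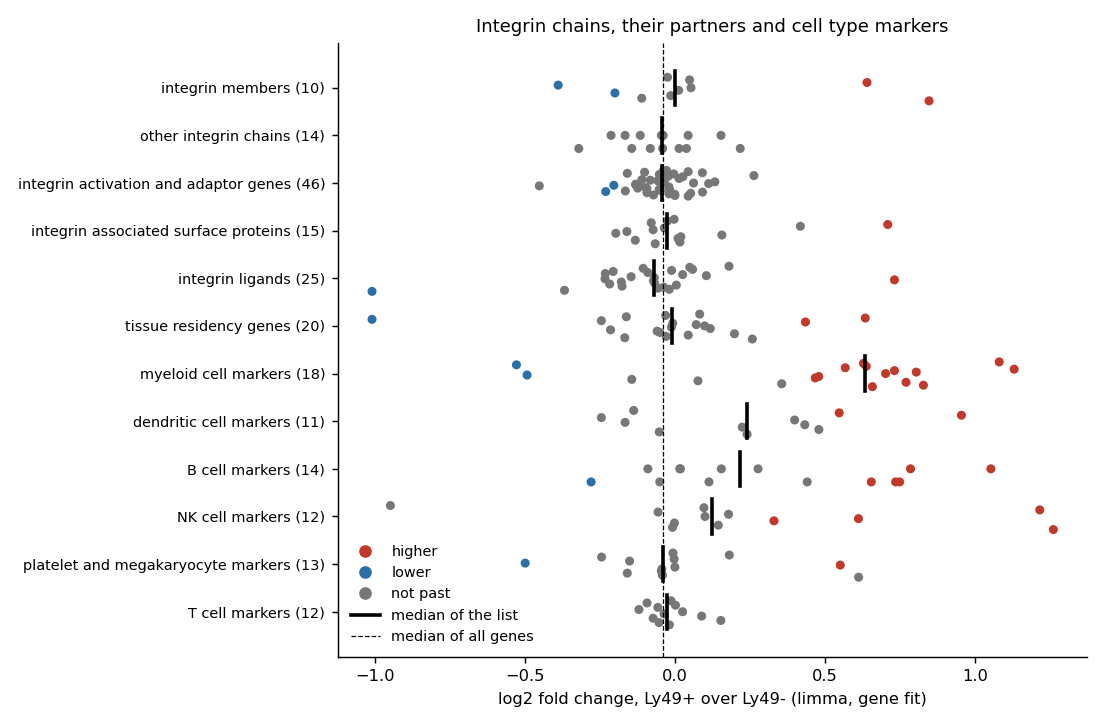
Log2 fold change of Ly49+ over Ly49- cells (gene-level limma fit) for the 10 integrin genes and for the lists around them, 1 point a gene, with the number measured in brackets. Thick ticks are list medians and the dashed line the median of all genes (-0.04). The 4 coloured integrin genes lie on both sides of 0, while the myeloid list has a median of 0.63.

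By the distance between centred log2 profiles over the 4 arrays, each of the 3 integrin genes with the largest changes had genes of nearly the same pattern. Closest to Itga1 were Rbm47, which encodes an RNA-binding protein (distance 0.06), Klhl4 (0.07) and Wdfy4, which dendritic cells need for cross-presentation (0.08). Rbm47 read 195 and 180.0 on the Ly49+ arrays and 96.9 and 98.8 on the Ly49- arrays. Closest to Itga2 were the lysosomal protease gene Ctsh (0.05), the macrophage gene Ms4a7 (0.06) and Slc11a1, a metal transporter of phagosomes (0.06). Ctsh read 698 and 802 on the Ly49+ arrays and 466 and 498 on the Ly49- arrays. Closest to Itgb3 were Fars2, a mitochondrial tRNA synthetase gene (0.01), the DNA polymerase gene Pole (0.02) and Fignl1 (0.02). Fars2 read 897 and 883 on the Ly49+ arrays and 1165 and 1190.3 on the Ly49- arrays. All distances rest on the same 4 arrays and imply no shared function.

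Each of the 4 calls was lost without at least 1 of the arrays. With 1 array left out, 2 of the 10 genes passed without Ly49+ replicate 1 (Itga1 and Itgb3), 1 without Ly49+ replicate 2 (Itga1), and 0 without Ly49- replicate 1 or without Ly49- replicate 2. Over those 4 fits the log2 change stayed between 0.79 and 0.90 for Itga1, 0.56 and 0.72 for Itga2, -0.41 and -0.37 for Itgb3, and -0.25 and -0.15 for Itgb7. These fits assumed that the lone array of a group varied like the other group.

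**Figure D5:**
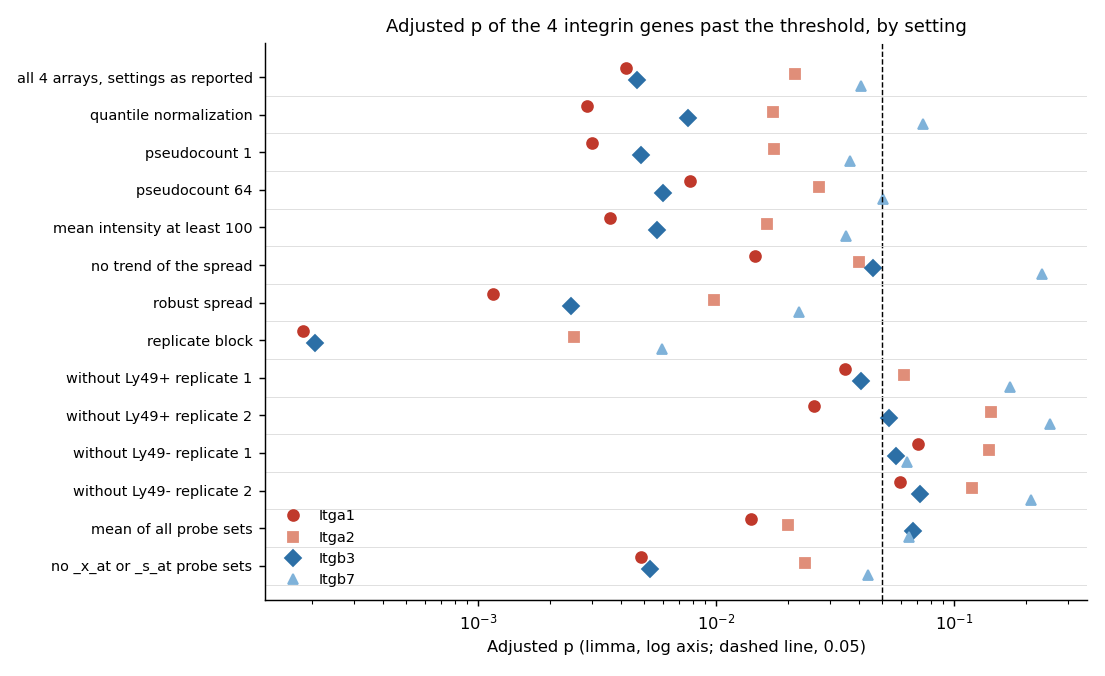
Adjusted p (limma, log axis) of Itga1, Itga2, Itgb3 and Itgb7 with the settings as reported and under 13 alternatives, with the dashed line at 0.05. Itga1 stays left of the line except without Ly49- replicate 1 (0.0702) or Ly49- replicate 2 (0.0595), and Itgb7 lies closest to the line with the settings as reported (0.0405).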

How the data were processed

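Expression was measured on 4 Affymetrix mouse arrays, 2 of Ly49+ and 2 of Ly49- CD8 T cells, grouped by sample title. The authors deposited 1 linear intensity for each probe set (8.32 to 43959), with array medians between 188.5 and 190.4. The sources used here do not give the summarisation or normalization. Per the labels, the RNA was isolated with an RNeasy kit.

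Gene names came from the platform annotation (34945 probe sets with 1 gene symbol). A gene's probe set of highest mean log2 value stood for it (18193 genes). Intensities were transformed to log2(intensity + 16) and tested with limma 3.58.1 in R 4.3.3 (trend of the spread, no covariates, residual degrees of freedom 2, prior 6.7, Benjamini-Hochberg adjustment, threshold 0.05), per gene and over 45037 probe sets. The fit was tested on simulated data. The highest of 27 bacterial control probe sets on any array (70.3) served as a level for dim readings. The number of arrays limits the precision. The members and lists were chosen with earlier results of these data known. Named were all 10 members, list members past the threshold with a few defining ones, and the 3 genes most alike to each of the 3 members with the largest change. Alternatives were quantile normalization, pseudocounts of 1 and 64, genes with a mean intensity of at least 100, no trend, a robust spread, a threshold of 0.1, a replicate block, the mean of all probe sets, no probe sets ending in _x_at or _s_at, and leaving out each array.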

Additional observations from a re-analysis of the deposited data

How the results depend on the processing

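No log2 change of an integrin gene or integrin probe set past the threshold changed sign under the 14 alternatives (13 for single probe sets). Among integrin genes not past it, the log2 change of Itgb1 changed sign in 4 of the 14, that of Itga4 in 2. Those of Itgal, Itgav and Itgb2 did so in 1 each. The count of 4 of the 10 integrin genes was 3 or 4 under quantile normalization, either pseudocount, the filter on dim genes, no trend, a robust spread, a threshold of 0.1, the replicate block and the exclusion of _x_at and _s_at probe sets. It was 2 with the mean of all probe sets, and 0 to 2 with 1 array left out. Of the 27 probe sets, 2 passed as reported, 1 without a trend of the spread, 5 with the replicate block and 0 to 0 with 1 array left out. The causes of these differences were not tested, and the fits with 1 array left out also rest on fewer arrays. Replicate numbers are shared by the groups: deviations of replicate 1 from the group means correlated at 0.243 between the groups over all genes and at 0.363 over those with a mean intensity of at least 100. With 2 pairs the numbers are not taken to pair the samples. The replicate block raised the count of all genes past the threshold to 1527 from 728 and that of activation and adaptor genes to 6 from 2, and kept all 4 integrin calls. All genes past the threshold numbered 371 without a trend, 1256 at a threshold of 0.1 and 107 to 289 with 1 array left out. Over all alternatives, list counts ran from 5 to 15 for myeloid markers (15 as reported), 0 to 6 for activation and adaptor genes (2), 0 to 6 for dendritic-cell markers (2), 0 to 5 for residency genes (3), 0 to 3 for platelet markers (2), 0 to 2 for associated surface proteins (1), 1 to 2 for ligands (2), 1 to 5 for the sort genes (4), 3 to 5 for NK-cell markers (4), 5 to 7 for B-cell markers (6), 0 to 1 for erythroid and for T-cell markers (0 each) and 0 to 0 for the other integrin chains (0).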

Other observations

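Itgae and Itga1 are usual markers of T cells that stay in tissues. Of the other genes tied to residency or homing, 20 were measured. Of the 20 measured, 2 were higher, 1 was lower (Cdh1, described above) and 17 did not pass. Of all genes, 1.93% were higher and 2.07% lower. In limma 4 of the 20 had an unadjusted p under 0.05, beside 18.1% of all genes. Their median log2 change over the 20 was -0.01 beside -0.04 for all genes. Gpr15, a receptor that guides T cells to the large intestine, read 1563 and 1730.3 on the Ly49+ arrays and 1032 and 1077 on the Ly49- arrays (log2 fold change 0.63, limma adjusted p = 0.0032, and 0.0635 without Ly49- replicate 1 or 0.0577 without Ly49- replicate 2). Xcl1, a chemokine for cross-presenting dendritic cells, read 11478 and 9942 on the Ly49+ arrays and 8578 and 7278 on the Ly49- arrays (0.43, adjusted p = 0.0244). Xcl1 did not pass when Ly49+ replicate 1 (0.155), Ly49- replicate 1 (0.0668) or Ly49- replicate 2 (0.224) was removed, nor with no trend (0.154), a robust spread (0.147) or averaged probe sets (0.0522). Cd69, which holds T cells in tissue, read 12392 and 9814 on the Ly49+ arrays and 12232 and 8452 on the Ly49- arrays, so that replicate 1 exceeded replicate 2 in both groups (0.12, adjusted p = 0.759). The gut-homing receptor Ccr9, often found with Itga4 and Itgb7, differed by -0.17 (adjusted p = 0.353) and the TGF-beta receptor gene Tgfbr2 by -0.06 (0.481).

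The genes beside Itga1 and Itga2 on chromosome 13 did not pass. Pelo, next after Itga1 by start coordinate, read 715 and 590 on the Ly49+ arrays and 629 and 686 on the Ly49- arrays (log2 fold change -0.02, limma adjusted p = 0.965). Mocs2, next before Itga2 by start coordinate, differed by -0.12 (adjusted p = 0.365). Within 3 protein-coding genes on either side of the 10 integrin genes, 45 others were measured, of which 2 were lower and 43 did not pass in limma. Of all genes, 4.0% passed in either direction and 2.07% were lower. The lower ones were Nrp1 and Rarg. Nrp1, a semaphorin and VEGF co-receptor gene beside Itgb1 on chromosome 8, read 276 and 293 on the Ly49+ arrays and 639.6 and 533 on the Ly49- arrays (log2 fold change -1.0, limma adjusted p = 0.00254). Its adjusted p was 0.0549 with Ly49- replicate 1 removed, and its log2 change was -0.56 (0.0483) with averaged probe sets. Beside Itgb7 on chromosome 15, the retinoic acid receptor gene Rarg read 359 and 309 on the Ly49+ arrays and 496 and 512 on the Ly49- arrays (-0.57, adjusted p = 0.0214). Its adjusted p was 0.149 with Ly49+ replicate 2 removed, 0.128 with Ly49- replicate 1 and 0.189 with Ly49- replicate 2 removed, and 0.110 with averaged probe sets.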
